A study of Mus musculus with 25 samples.

Results

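Adlercreutzia is a genus of strictly anaerobic gut bacteria in the family Eggerthellaceae, class Coriobacteriia. Its members here were the amplicon sequence variants (ASVs, distinct 16S rRNA gene sequences left after removal of sequencing errors) whose genus rank in the deposited taxonomy reads Adlercreutzia. There were 11 such ASVs among 1555 in the table, and together they held 2166 of 300831 counts, or 0.720%.

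Adlercreutzia equolifaciens is best known for turning daidzein, an isoflavone of soy, into equol. Equol is a ligand of estrogen receptors, so the genus is often followed in work on estrogen loss and on plant-rich diets or remedies. Isoflavones reach the gut mostly as glucosides, which other bacteria such as lactobacilli and bifidobacteria cleave before daidzein can be reduced. A 16S rRNA gene names the organism and says nothing of whether a strain carries the equol genes or whether equol was formed.

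Full-length 16S rRNA genes were sequenced on a PacBio instrument from feces of C57BL/6 mice. Sham mice form the reference group, and OVX, the usual abbreviation of ovariectomy, names the surgery that the other 4 groups share. OVX mice had no further treatment in the labels, OVX+GEX mice were given GEX, which the labels do not spell out, OVX+PBS mice were given buffered saline, and OVX+FMT mice were given a fecal microbiota transplant whose donors are not named. Per the submitters' design, the study was of mice lacking estrogen, and part of the mice received a traditional medicine. Sham names the group without ovariectomy. No label gives the age, the diet, the dose or the cages, and every sample's sex field reads male, at odds with ovariectomy. There were 5 libraries in each of 5 groups. Nothing in the labels says whether mice of a group shared a cage or a litter, so the p-values below measure the spread between these libraries.

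Library totals ran from 8498 to 22404 counts, with a median of 10123. Adlercreutzia had between 24 and 192 counts in a library, with a median of 90, so a single ASV often rested on 10 to 60 counts. The table holds no value of 1 and 464 values of 2, so an ASV listed at 0 may have been present below the level at which it was kept. Intervals on shares cover counting error only.

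The genus was found in 25 of 25 libraries, which was true of 26 of 110 genera, and ranked 21 by mean share. It was almost the only representative of its class, with 98.1% of the counts of Coriobacteriia and 90.0% of those of Actinobacteria. The taxonomy named 8 of the ASVs Adlercreutzia equolifaciens, with 1960 counts. The other 3, with 206 counts, were named its subspecies celatus, which is also known as an equol producer and was once placed in the genus Asaccharobacter. ASV_69 held 29.1% of the genus counts, ASV_74 27.9%, ASV_104 17.6%, ASV_133 12.4% and ASV_202, the main celatus variant, 7.48%. These 5 ASVs had at least 3 counts in at least 5 libraries and could be tested. They made up 94.5% of the genus, and the remaining 6 ASVs were too rare for a test.

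As a share of all counts, Adlercreutzia was lowest and most even in Sham feces, and higher on average but far more variable in the OVX groups. The Sham libraries had 0.401%, 0.441%, 0.461%, 0.553% and 0.434%, a mean of 0.458% ± 0.0576 (SD, n = 5). The OVX libraries had 0.800%, 0.533%, 1.07%, 0.919% and 0.249%, a mean of 0.713% ± 0.325 (SD, n = 5). The lowest library of all was thus an OVX one, where 24 counts gave 0.249% with a 95% Wilson interval of 0.167% to 0.370%, while 3 other OVX libraries lay above every Sham library. The OVX+GEX libraries had 0.498%, 1.46%, 1.09%, 0.377% and 1.45%, a mean of 0.976% ± 0.515 (SD, n = 5). The OVX+PBS libraries had 0.464%, 0.871%, 0.902%, 0.374% and 0.385%, a mean of 0.599% ± 0.265 (SD, n = 5). In both groups some libraries lay at 0.871% or above and the others at 0.498% or below, with none between. The OVX+FMT libraries had 0.857%, 0.749%, 1.18%, 1.52% and 0.557%, a mean of 0.973% ± 0.380 (SD, n = 5), and each lay above all Sham libraries.

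**Figure D1:**
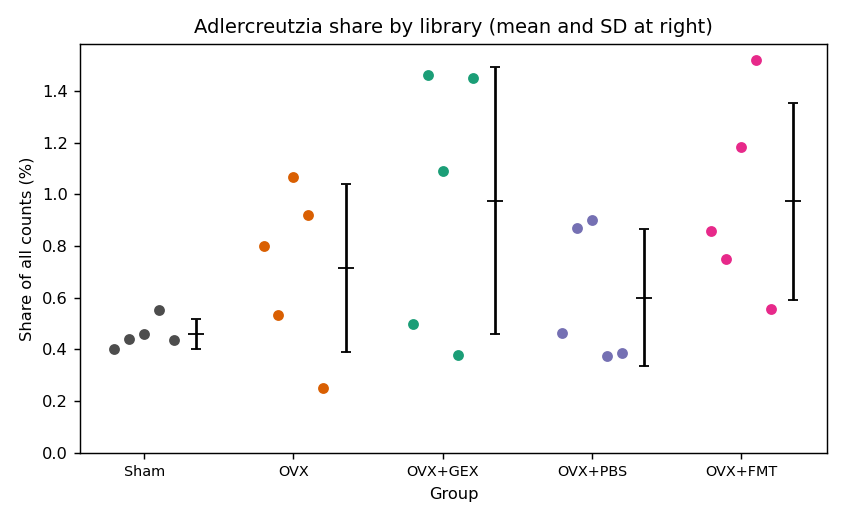
Each point is the Adlercreutzia share of all counts (%) in 1 library, by group, with the group mean and SD at the right of its points. Sham libraries lie between 0.401% and 0.553%, while OVX+GEX libraries spread from 0.377% to 1.46% and OVX+FMT libraries from 0.557% to 1.52%.

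In order of mean share OVX+GEX came first and OVX+FMT next, with OVX in the middle, OVX+PBS below it and Sham last, and no neighbours in that order differed beyond their spread. The 10 pairs of groups were compared by two-sided exact permutation tests of the shares, whose smallest possible p with 5 against 5 libraries is 0.00794, and p-values were adjusted over the 10 pairs. OVX exceeded Sham by 0.255 percentage points (exact p = 0.135, adjusted 0.302). OVX+GEX exceeded OVX by 0.262 points (exact p = 0.357, adjusted 0.486). OVX+FMT exceeded OVX+PBS by 0.374 points (exact p = 0.111, adjusted 0.302), and OVX+PBS lay 0.114 points below OVX, a difference of -0.114 (exact p = 0.563, adjusted 0.626). OVX+FMT against Sham was the only pair without overlap, with a difference of 0.515 points (exact p = 0.00794, adjusted 0.0794). The gap was narrow, since the highest Sham library stood at 0.553% and the lowest OVX+FMT library at 0.557%, with Wilson intervals of 0.464% to 0.659% and 0.463% to 0.671%. Of the genera tested, 6.17% had shares that did not overlap between those groups.

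Tested as a genus among the 81 genera with at least 3 counts in at least 5 libraries, Adlercreutzia was higher in OVX+GEX than in Sham, and no other pair of groups reached an adjusted p of 0.05. That rise was a log2 fold change of 1.84 (SE 0.54), or 3.59-fold on the scale of TMM-normalised counts (edgeR quasi-likelihood test, adjusted p = 0.0390). It was 1 of 4 genera called in that comparison, or 4.94% of those tested, beside Lawsonibacter, Ligilactobacillus and Shigella, all of them higher. The call passed in 4 of 19 alternative analyses, with adjusted p-values from 0.00348 to 0.351 across edgeR, DESeq2 and limma. It was lost on leaving out any Sham library (edgeR adjusted p = 0.0699 to 0.133) and on leaving out OVX+GEX replicate 2 (0.130), 3 (0.0569) or 5 (0.160). With library totals in place of TMM factors the log2 fold change was 1.09 (edgeR adjusted p = 0.326), and the median over all genera moved from -0.02 to -0.61, so part of that difference lay in the scaling of all genera.

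In the 4 comparisons taken here as the main ones no call was made for the genus. In log2 fold change, OVX against Sham gave 1.08 (SE 0.53, edgeR adjusted p = 0.406), OVX+GEX against OVX 0.77 (SE 0.52, adjusted p = 0.697), OVX+FMT against OVX+PBS 0.62 (SE 0.52, adjusted p = 0.544) and OVX+PBS against OVX -0.06 (SE 0.52, adjusted p = 0.997). The share of genera called by edgeR was 0% in each of the 4, with 9, 5, 12 and 11 genera at an unadjusted p under 0.05. DESeq2 called 1, 0, 0 and 1 genera there, and limma on centred log-ratios 1, 1, 1 and 1, none of them Adlercreutzia. The median log2 fold change over all genera was 0.15, 0.13, 0.62 and -0.47, so in OVX+FMT against OVX+PBS the genus sat at the median of the table. Against Sham, OVX+PBS gave 1.02 (SE 0.53, edgeR adjusted p = 0.238) and OVX+FMT 1.64 (SE 0.53, edgeR adjusted p = 0.0739), with 1.23% of genera called in each. The OVX+FMT difference passed in 3 of 19 alternatives, with adjusted p = 0.0411 in edgeR after TMMwsp scaling, 0.0150 by DESeq2 and 0.0266 in edgeR with only the compared groups fitted. In that comparison these 3 settings called more genera than the main fit, 5 of 81, 6 of 81 and 3 of 64. The comparisons with Sham share the Sham libraries, so their like sign is not independent. OVX+FMT against OVX, OVX+PBS against OVX+GEX and OVX+FMT against OVX+GEX gave 0.56, -0.83 and -0.20 (SE 0.52 in each, edgeR adjusted p from 0.379 to 0.899), with 0% of genera called, 7, 12 and 11 genera at an unadjusted p under 0.05, and 0, 2 and 0 called by DESeq2. Over all 5 groups the genus gave F = 3.42 (edgeR adjusted p = 0.143).

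**Figure D2:**
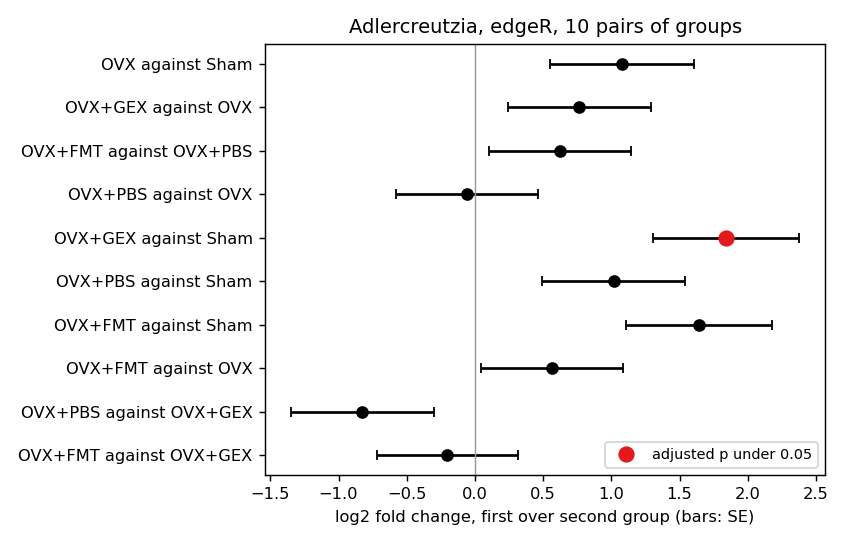
Points are log2 fold changes of Adlercreutzia in the 10 pairs of groups from the edgeR fit over 25 libraries, first group over second, and bars are standard errors. The 4 contrasts with Sham lie at 1.02 to 1.84, and OVX+GEX against Sham is the point marked as having an adjusted p under 0.05.

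A share also depends on what else is in the library. Duncaniella and Ligilactobacillus, the most abundant genera, together held 25.1% ± 6.96 of counts in Sham, 48.1% ± 13.0 in OVX, 45.7% ± 16.6 in OVX+GEX, 51.8% ± 13.5 in OVX+PBS and 47.5% ± 18.8 in OVX+FMT (SD, n = 5 each). With both left out of the totals, Adlercreutzia made up 0.615% ± 0.0875 of Sham counts, 1.47% ± 0.799 of OVX, 1.95% ± 1.37 of OVX+GEX, 1.26% ± 0.438 of OVX+PBS and 1.87% ± 0.365 of OVX+FMT. On this scale OVX+GEX, OVX+PBS and OVX+FMT each lay wholly above Sham (exact permutation p = 0.00794, adjusted 0.0265 over 10 pairs). Of the 79 genera left, Adlercreutzia included, 2.53%, 8.86% and 3.8% did not overlap with Sham, in either direction. OVX still overlapped Sham (exact p = 0.0952, adjusted 0.190), since its replicate 5 stood at 0.520%. Leaving out the most abundant genera raises every other genus, and more so in libraries where they held more of the counts. On plain shares the adjusted exact permutation p against Sham was 0.302 for OVX+GEX, 0.486 for OVX+PBS and 0.0794 for OVX+FMT. Centred log-ratios, a scale relative to the mean log count of all genera, gave adjusted exact p = 0.0397 for both OVX+PBS and OVX+FMT against Sham, but 0.132 for OVX+GEX against Sham, the pair called by edgeR (limma adjusted p = 0.221). The abundant genera therefore moved with these differences, and their part in the result was not tested beyond these values.

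Within the genus, libraries held different sets of variants, as the stacked shares of the ASVs show, although edgeR called no single variant between any pair of groups. ASV_69 and ASV_74 were in most libraries of every group. ASV_104 was in all Sham, 4 OVX+FMT and 2 OVX libraries and, at 10 and 3 counts, in 1 library each of OVX+GEX and OVX+PBS. ASV_133 was in all OVX+GEX and 3 OVX+PBS libraries and, at 8 counts or fewer, in 2 Sham, 2 OVX and 3 OVX+FMT libraries. The sequences of the variants are not among the files analysed here, so how many bases separate them is not given.

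**Figure D3:**
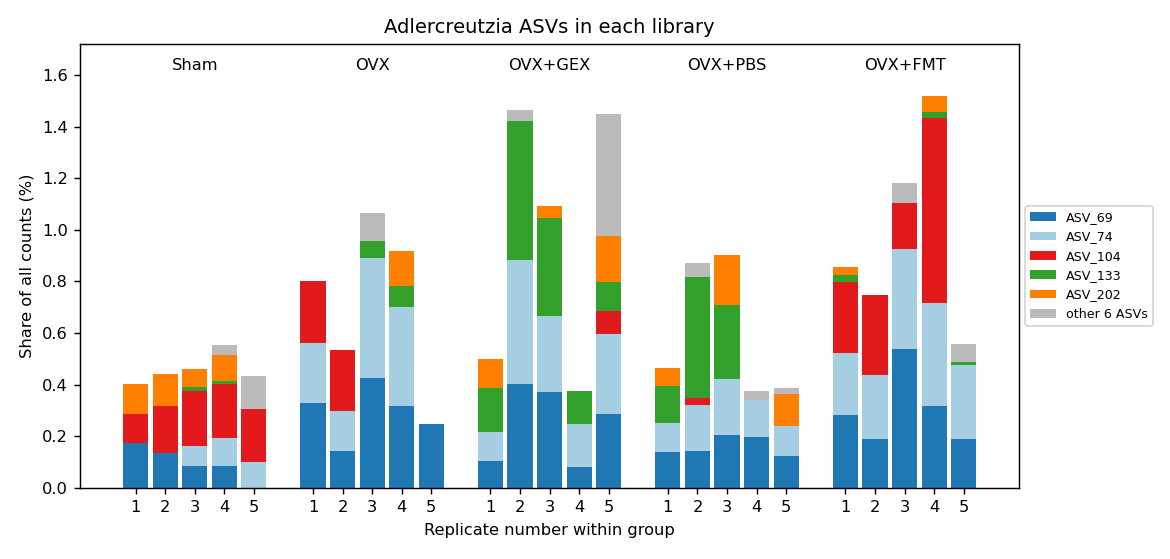
Bars stack the shares of all counts (%) of the 5 tested Adlercreutzia ASVs and of the other 6 together in each library, by group and replicate number. ASV_104 appears in all 5 Sham, 4 OVX+FMT and 2 OVX libraries and in 1 library each of OVX+GEX and OVX+PBS. ASV_133 exceeds it in all 5 OVX+GEX libraries.

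ASV_69, named A. equolifaciens, was found in 24 of 25 libraries. Its counts were 17, 13, 15, 19 and 0 in Sham, 37, 16, 39, 32 and 24 in OVX, 11, 40, 33, 7 and 31 in OVX+GEX, 30, 16, 18, 17 and 11 in OVX+PBS, and 63, 20, 54, 30 and 37 in OVX+FMT. Its mean share was 0.0958% ± 0.0652 in Sham, 0.293% ± 0.104 in OVX, 0.249% ± 0.149 in OVX+GEX, 0.162% ± 0.0374 in OVX+PBS and 0.302% ± 0.143 in OVX+FMT (SD, n = 5 each). All OVX+FMT libraries lay above all Sham libraries, the lowest at 0.187% and the highest Sham library at 0.175%, while the other groups overlapped with Sham.

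ASV_74, also named A. equolifaciens, was found in 22 libraries. It had 0, 0, 13, 24 and 10 counts in Sham, 26, 17, 43, 39 and 0 in OVX, 12, 48, 26, 14 and 33 in OVX+GEX, 25, 20, 19, 12 and 10 in OVX+PBS, and 54, 26, 39, 38 and 57 in OVX+FMT. Mean shares were 0.0561% ± 0.0526 in Sham, 0.248% ± 0.186 in OVX, 0.272% ± 0.143 in OVX+GEX, 0.153% ± 0.0444 in OVX+PBS and 0.313% ± 0.0765 in OVX+FMT (SD, n = 5 each). Every OVX+GEX, OVX+PBS and OVX+FMT library exceeded every Sham library, and every OVX+FMT library exceeded every OVX+PBS library, whereas 1 OVX library was at 0.

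ASV_69 and ASV_74 ran almost one for one. In the 21 libraries that held both, ASV_74 made up 41.3% to 66.7% of the pair, with a median of 51.6%. The exceptions were 4 libraries in which one of them was listed at 0 beside a clear count of the other: Sham replicates 1 and 2, with 17 and 13 counts of ASV_69 alone, Sham replicate 5, with 10 counts of ASV_74 alone, and OVX replicate 5, with 24 counts of ASV_69 alone. The exact 95% intervals of the ASV_74 percentage there were 0% to 19.5%, 0% to 24.7%, 69.2% to 100% and 0% to 14.2%, all outside the range of the other libraries. The shares of the pair had a Pearson r of 0.770 and a Spearman rho of 0.770 over 25 libraries, r of 0.719 without the 2 libraries farthest from the median, and r of 0.629 and rho of 0.667 after group means were removed. These values describe a pair picked after its counts were seen, in libraries that share one total, and no test is attached.

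**Figure D4:**
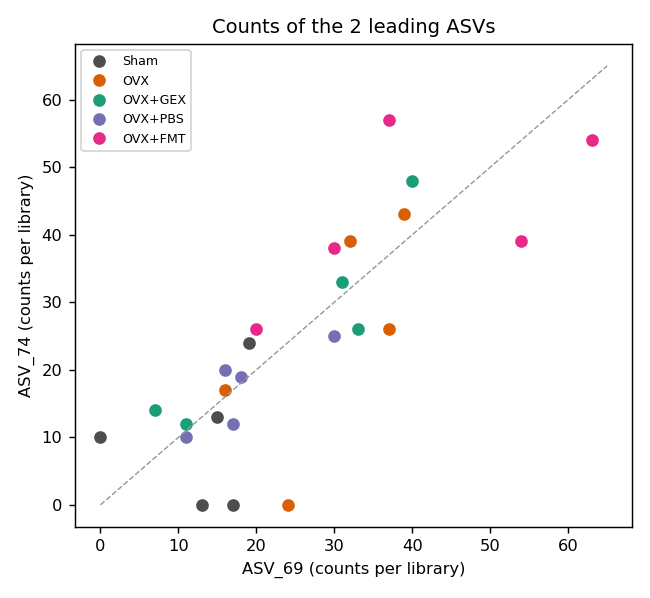
Each point is 1 library, with its counts of ASV_69 on the horizontal and of ASV_74 on the vertical axis, coloured by group, and the dashed line marks equal counts. Of the 25 libraries 21 hold both ASVs and lie near the line, and 4 lie on an axis with 1 of the ASVs at 0.

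Summed, ASV_69 and ASV_74 were higher in every library of the 4 OVX groups than in every Sham library, given here as a description because the sum was formed after the values were seen. The sum was 0.152% ± 0.0367 of counts in Sham (range 0.0987% to 0.192%), 0.540% ± 0.271 in OVX, 0.521% ± 0.285 in OVX+GEX, 0.314% ± 0.0740 in OVX+PBS and 0.615% ± 0.203 in OVX+FMT (SD, n = 5 each). The lowest library of the 4 OVX groups, at 0.216%, belonged to OVX+GEX. As a percentage of the genus the sum was 33.2% in Sham, 77.2% in OVX, 54.2% in OVX+GEX, 58.1% in OVX+PBS and 66.0% in OVX+FMT.

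ASV_104, named A. equolifaciens, was the variant with most counts in 4 of 5 Sham libraries. Its counts were 11, 18, 37, 47 and 21 in Sham, 27, 26, 0, 0 and 0 in OVX, 0, 0, 0, 0 and 10 in OVX+GEX, 0, 3, 0, 0 and 0 in OVX+PBS, and 62, 33, 18, 68 and 0 in OVX+FMT. It was thus in every Sham library, in 2 OVX libraries, in 1 library each of OVX+GEX and OVX+PBS and in 4 OVX+FMT libraries. It formed 40.4% ± 7.83 of the genus in Sham and 27.3% ± 19.5 in OVX+FMT, against 14.8% ± 20.9 in OVX, where replicates 1 and 2 had 30.0% and 44.1%, within the Sham range, and the others 0, 1.28% ± 2.87 in OVX+GEX and 0.612% ± 1.37 in OVX+PBS (SD, n = 5 each). Its share of all counts was 0.186% ± 0.0421 in Sham, and all OVX+GEX and OVX+PBS libraries lay below all Sham libraries. OVX and OVX+FMT each overlapped Sham, with the highest share of all, 0.717%, in OVX+FMT replicate 4.

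ASV_133, also named A. equolifaciens, had the opposite distribution. Its counts were 0, 0, 3, 3 and 0 in Sham, 0, 0, 6, 8 and 0 in OVX, 18, 54, 34, 11 and 12 in OVX+GEX, 31, 53, 25, 0 and 0 in OVX+PBS, and 6, 0, 0, 2 and 2 in OVX+FMT. Only OVX+GEX had it in all 5 libraries, with a share of 0.267% ± 0.188, against 0.180% ± 0.201 in OVX+PBS, 0.0289% ± 0.0398 in OVX, 0.0116% ± 0.0122 in OVX+FMT and 0.00613% ± 0.00851 in Sham (SD, n = 5 each). OVX+GEX did not overlap with Sham, OVX or OVX+FMT, and did overlap with OVX+PBS, where 3 libraries lay within the OVX+GEX range and 2 were at 0. Of the genus it made up 34.0%, 37.0%, 35.1%, 34.4% and 7.69% in the OVX+GEX libraries. The last of these, replicate 5, was also the one that held ASV_104 and a variant of its own, ASV_443.

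Set side by side, ASV_104 exceeded ASV_133 in 11 libraries and the reverse held in 11, with neither present in the other 3. The first kind comprised 5 Sham, 2 OVX and 4 OVX+FMT libraries, and the second all 5 OVX+GEX libraries, 3 of OVX+PBS, 2 of OVX and 1 of OVX+FMT. Both were present together in 6 libraries. Over 25 libraries their shares had a Pearson r of -0.392 and a Spearman rho of -0.428, and after group means were removed r was -0.04 and rho -0.14. This pair too was picked after its counts were seen, in libraries that share one total, and no test is attached. Within OVX the variants also fell in different libraries, ASV_104 alone in 2, ASV_133 alone in 2 and neither in the last.

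**Figure D5:**
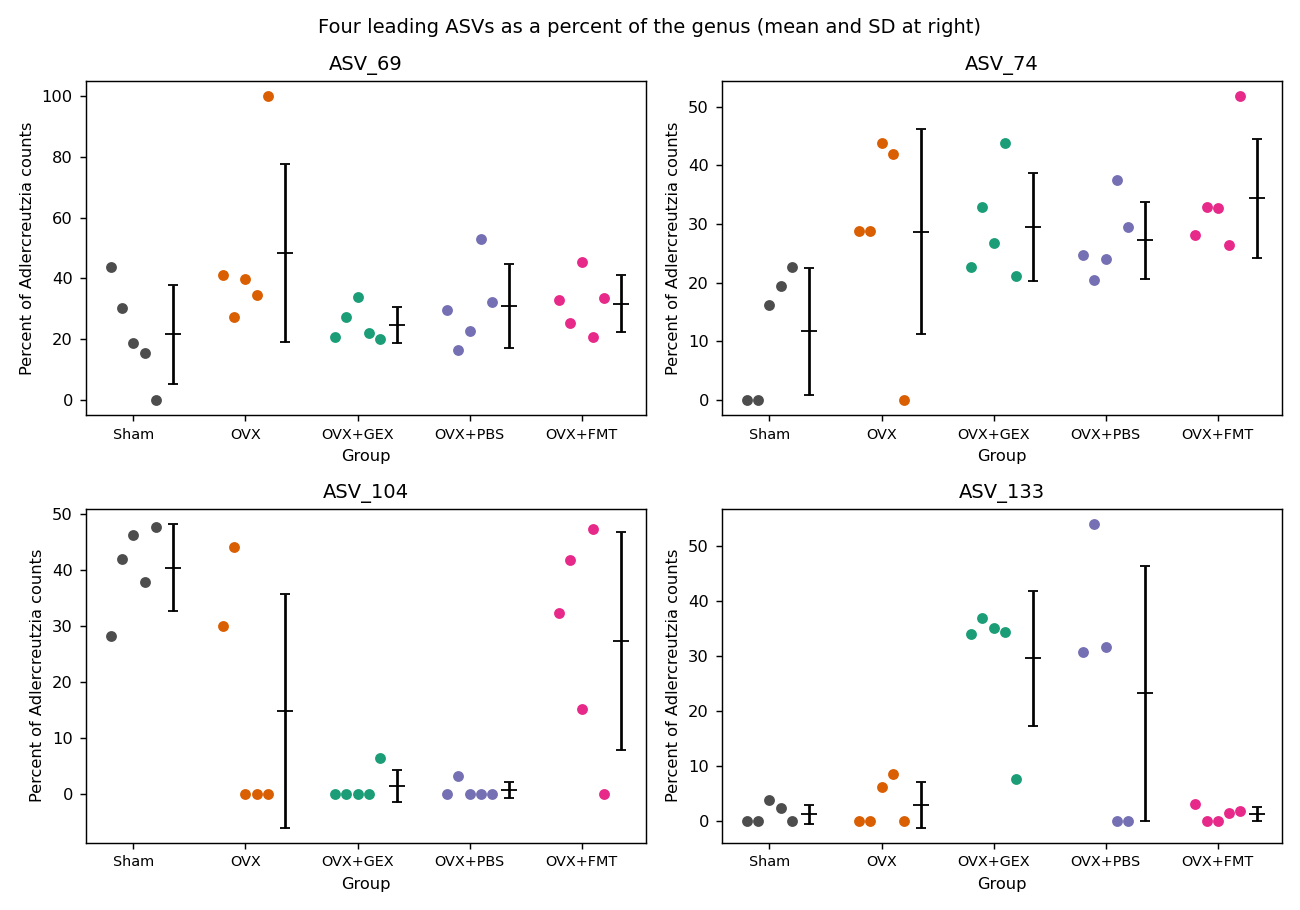
Panels give ASV_69, ASV_74, ASV_104 and ASV_133 as a percentage of the Adlercreutzia counts of each library, by group, with mean and SD at the right. ASV_104 averages 40.4% in Sham and 27.3% in OVX+FMT, and ASV_133 29.6% in OVX+GEX and 23.3% in OVX+PBS.

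The subspecies celatus had its highest mean part of the genus in Sham feces, but single libraries of other groups reached the Sham range. ASV_202 had 11, 12, 12, 22 and 0 counts in Sham, 14 in OVX replicate 4 and 0 in the other OVX libraries, 12, 0, 4, 0 and 19 in OVX+GEX, 15, 0, 17, 0 and 11 in OVX+PBS, and 7, 0, 0, 6 and 0 in OVX+FMT. In Sham replicate 5, where it was at 0, the second celatus variant ASV_541 had 13 counts, so every Sham library held one or the other. The 3 celatus variants together made up 25.1% ± 5.90 of the genus in Sham, 5.05% ± 7.13 in OVX, 8.34% ± 9.19 in OVX+GEX, 13.7% ± 14.0 in OVX+PBS and 2.91% ± 2.90 in OVX+FMT (SD, n = 5 each). Sham libraries ran from 15.0% to 29.5%, and the highest library was 15.1% in OVX, 22.6% in OVX+GEX, 32.4% in OVX+PBS and 6.72% in OVX+FMT. As a percentage of the genus, OVX+FMT alone thus did not overlap with Sham. As shares of all counts the means were 0.114% ± 0.0269 in Sham, 0.0494% ± 0.0685 in OVX, 0.0749% ± 0.0697 in OVX+GEX, 0.0775% ± 0.0835 in OVX+PBS and 0.0348% ± 0.0362 in OVX+FMT. The highest OVX+GEX and OVX+PBS libraries, at 0.176% and 0.194%, were above the highest Sham library at 0.138%. On this scale OVX+FMT overlapped with Sham too, its highest library at 0.0795% and the lowest Sham library at 0.0691%. The sum was formed after the values were seen and is not tested.

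The remaining variants were rare, with counts in 1 to 4 libraries each. ASV_443 had 51 counts in OVX+GEX replicate 5, where it was the leading variant with 32.7% of the genus, and was at 0 in the other libraries. ASV_541 had 9 and 13 counts in Sham replicates 4 and 5, 10 in OVX replicate 3 and 4 in OVX+GEX replicate 2. ASV_863 had 6 counts in OVX+PBS replicate 2 and 7 in OVX+FMT replicate 5. ASV_1045, the third celatus variant, had 8 counts in OVX+FMT replicate 3, ASV_1099 had 7 in OVX+FMT replicate 5, and ASV_1184 had 3 and 2 in OVX+PBS replicates 4 and 5.

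Over all 379 ASVs tested, edgeR called none of the 5 Adlercreutzia ASVs in any of the 10 pairs of groups, in a table where it called few ASVs at all. It called 1.06% of ASVs in OVX+FMT against Sham, 0.264% in OVX+FMT against OVX+GEX and 0% in the other 8 pairs, where 65 to 97 ASVs had an unadjusted p under 0.05 and DESeq2 called 1 to 11. At an unadjusted p under 0.05 there were 5 results among the members. They were ASV_133 in OVX+GEX against Sham (log2 fold change 4.99, SE 2.16, edgeR adjusted p = 0.194), in OVX+FMT against OVX+GEX (-4.49, SE 2.11, adjusted p = 0.218) and in OVX+PBS against Sham (4.28, SE 2.08, adjusted p = 0.180), and ASV_104 in OVX+FMT against OVX+PBS (edgeR adjusted p = 0.175) and OVX+PBS against Sham (edgeR adjusted p = 0.130). The ASV_133 folds are loose, since Sham held 6 counts of it and OVX+FMT 10, and for ASV_104, with 3 counts in OVX+PBS, no fold is given. DESeq2 did call ASV_133 in OVX+GEX against Sham (log2 fold change 5.12, SE 1.58, adjusted p = 0.0339) and OVX+PBS against Sham (5.01, SE 1.58, adjusted p = 0.0272), and ASV_69 (1.98, SE 0.61, adjusted p = 0.0352) and ASV_74 (2.72, SE 0.81, adjusted p = 0.0280) in OVX+FMT against Sham. Limma on centred log-ratios called ASV_133 in OVX+GEX against Sham (4.75, SE 1.25, adjusted p = 0.0425) and no other member. Of the 379 ASVs, DESeq2 called 6, 11 and 11 in OVX+GEX, OVX+PBS and OVX+FMT against Sham. Limma called 10 of them in OVX+GEX against Sham.

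Counted by groups whose shares do not overlap, members stood apart as follows, beside the percentage of all tested ASVs for which the same held. Against Sham these were ASV_74, ASV_104 and ASV_133 in OVX+GEX, ASV_74 and ASV_104 in OVX+PBS, and ASV_69 and ASV_74 in OVX+FMT, with 3.43% of all ASVs in each of the 3 comparisons. The others were ASV_133 in OVX+GEX against OVX (0.528% of all ASVs), ASV_74 in OVX+FMT against OVX+PBS (1.06%) and ASV_133 in OVX+FMT against OVX+GEX (0.792%). No member did so in OVX against Sham (1.32%), OVX+PBS against OVX (0.528%), OVX+PBS against OVX+GEX (0.792%) or OVX+FMT against OVX (0%). Each of these had the smallest exact permutation p of 0.00794, which after adjustment over the 379 ASVs became 0.231 against Sham, 0.752 for OVX+FMT against OVX+PBS and 1.0 for the other 2.

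The mix of variants was summarised as the part of the Bray-Curtis distances, computed on percentages of the genus, that lay between groups (R2). With 5 against 5 libraries R2 averages 0.111 when groups do not matter. It is a description added after the values were seen. R2 was highest for OVX+GEX against Sham (0.588), OVX+PBS against Sham (0.476) and OVX+FMT against OVX+GEX (0.448), and stood at 0.342 for OVX+FMT against Sham, 0.341 for OVX against Sham, 0.333 for OVX+FMT against OVX+PBS and 0.315 for OVX+GEX against OVX. It was 0.206 for OVX+PBS against OVX, and near or below the average without a difference for OVX+FMT against OVX (0.119) and OVX+PBS against OVX+GEX (0.0459). From presence alone it was 0.423 for OVX+GEX against Sham, 0.227 for OVX against Sham and 0.151 for OVX+FMT against OVX+PBS.

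The number of variants was not shown to differ between groups. Rarefied to the smallest total of 8498 counts, a library held on average 3.92 ± 1.30 Adlercreutzia ASVs in Sham, 3.00 ± 1.22 in OVX, 4.2 ± 1.10 in OVX+GEX, 4.00 ± 0.702 in OVX+PBS and 4.31 ± 0.827 in OVX+FMT (SD, n = 5 each). The largest difference, 1.31 ASVs between OVX+FMT and OVX, had an exact permutation p of 0.0873 (adjusted 0.784 over 10 pairs).

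Among the other listed bacteria of the isoflavone pathway that could be tested, edgeR called only Ligilactobacillus, in OVX+GEX against Sham. Of 5 other genus names listed for equol formers, the table held only Eggerthella (2 counts) and Lactococcus (46 counts in 10 libraries). Asaccharobacter is among these names, and celatus, once placed there, is counted under Adlercreutzia here. The absence of that name is therefore not an absence of celatus. Lactococcus was not called in any of the 10 pairs of groups (edgeR adjusted p of 0.232 or more). The other Coriobacteriia were Raoultibacter with 26 counts, Enorma with 13, Eggerthella with 2 and Gordonibacter with 2, too few for a test. Of 6 genera known to cleave isoflavone glucosides, 4 were tested. Ligilactobacillus, a lactobacillus genus, was higher in OVX+GEX than in Sham, at 29.2% against 11.9% of counts (log2 fold change 1.95, SE 0.57, edgeR adjusted p = 0.0390). Bifidobacterium, Lactobacillus and Bacteroides were not called in that comparison or in any other. The median log2 fold change of the 4 was 1.31 there, beside -0.02 over all genera, with Lactobacillus on the other side at -0.68 (0.0689% of counts against 0.173%). Bifidobacterium had 190 of its 198 counts in OVX+FMT and 0 in OVX and OVX+PBS (edgeR adjusted p = 0.0812 for OVX+FMT against OVX+PBS). Eubacterium and Clostridium, which include species that turn daidzein into O-desmethylangolensin instead of equol, were tested and not called in any pair (edgeR adjusted p of 0.123 or more).

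Among the 80 other tested genera, Romboutsia followed Adlercreutzia most closely over the 25 libraries, with a Spearman rho of 0.61 between centred log-ratios. Ligilactobacillus came next at 0.52 and Bifidobacterium at 0.49. After group means were removed these fell to 0.31, 0.30 and 0.15, and other genera ranked higher, with Christensenella first at 0.45. On raw shares Romboutsia stayed first at 0.52 and Salimesophilobacter was next at 0.50, while Ligilactobacillus had 0.32 and Bifidobacterium 0.26. The ranking thus depends on the scale. Bifidobacterium had counts in only 6 of the 25 libraries, so its rho rests largely on libraries listed at 0. Christensenella and Salimesophilobacter are named after their values were seen. The values are descriptions over libraries that share one total per library.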

How the data were processed

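The deposited table holds read counts for each ASV and, per its header, a 7-rank taxonomy. Subread is named in the submitters' processing notes. The sources used here give no denoiser, primers or taxonomy database. The columns of 5 libraries are spelled OVX+GES where the sample titles read OVX+GEX, and were matched by group and number. Counts were summed by genus. Genera and ASVs with at least 3 counts in at least 5 libraries were fitted with edgeR 4.0.16 (TMM factors, quasi-likelihood F test, 25 libraries in one model, R 4.3.3) with Benjamini-Hochberg adjustment over all features tested, and a result was called at an adjusted p under 0.05. DESeq2 1.42.0, limma 3.58.1 on centred log-ratios (0.5 added), other scalings and filters, a replicate block and leaving out each library were alternatives. Shares were compared by two-sided exact permutation tests in Python 3.11.15. Correlations used scipy 1.17.1. The edgeR fit was tested on simulated counts. All Adlercreutzia ASVs are named, with the 3 genera most like the genus in centred log-ratio and the genera of 4 lists. The members and lists were chosen with earlier results of these data known.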

Additional observations from a re-analysis of the deposited data

Results flagged for a closer look

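Within groups, 40 sets of 5 shares were screened for a library far from the others, and 4 were found. For normally distributed values chance marks about 1 set in 20. That rate does not apply to 3 of the 4, where every other library was at 0 and any count stands apart. The share of ASV_104 was 0.113% in Sham replicate 1, below the other 4 Sham libraries, of which the nearest had 0.184%. It was 0.0928% in OVX+GEX replicate 5 and 0.0267% in OVX+PBS replicate 2, while the other 4 libraries of each of these groups were at 0. The share of ASV_202 was 0.138% in OVX replicate 4, and 0 in the other 4 OVX libraries. The 0.0267% in OVX+PBS rests on 3 counts.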

How the results depend on the processing

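In the 4 main comparisons, no alternative brought the genus, its richness or any member ASV past the threshold. Signs held except where given here. The small difference of OVX+PBS against OVX changed sign: the share on the centred log-ratio scale gave 0.25, and the genus log2 fold change was 0.031 with TMMwsp, 0.030 with RLE, 0.14 with DESeq2, 0.25 with limma, 0.064 with no filter, 0.0034 with a minimum of 10 counts and 0.048 with only those groups fitted, and ran from -0.27 to 0.26 on leaving out each library. OVX+FMT against OVX+GEX also changed sign: the share difference was 0.27 as a centred log-ratio, 0.11 on the log2 scale and -0.153 to 0.119 without each library, and the genus log2 fold change 0.082 with TMMwsp, 0.27 with limma, 0.048 with only those groups and -0.42 to 0.24 without each library. Richness differences changed sign in OVX+PBS against Sham (-0.126 for ASVs of at least 3 counts, -0.173 to 0.530 without each library), OVX+FMT against OVX+GEX (-0.226, and -0.193 to 0.557), OVX+GEX against Sham (-0.173 to 0.733) and OVX+PBS against OVX+GEX (-0.503 to 0.247). The cause was not tested.

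Same-numbered libraries did not all deviate together (correlations of their deviations from group means from -0.286 to 0.336), and in no comparison did every pair exceed 0.1, so the libraries are taken to share only a number. In OVX+GEX against Sham the correlations were 0.0479 to 0.188, with 4 of 5 above 0.1. As many were above 0.1 in OVX+GEX against OVX (0.0913 to 0.201) and in OVX+PBS against OVX+GEX (0.0656 to 0.278). With the replicate block the genus log2 fold change of OVX against Sham was 1.10 (edgeR adjusted p = 0.442). OVX+GEX against Sham, at 1.75, lost its call (edgeR adjusted p = 0.121), and genera called in that comparison went from 4 to 1. The exact sign-flip test of shares cannot go below p = 0.0625.

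With 24 to 192 genus counts a library, differences between single ASVs of under a few counts cannot be seen.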
